A study of Mus musculus with 123 samples.

Results

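A set of 4 genes of antibody secretion and antibody transport were measured through an OVA asthma model in mouse lung: Ighm, Igkv15-103, Jchain and Pigr. They were the 4 named members of a set fixed by gene symbol, out of 13053 genes with a single symbol in the array's annotation, and every probe set listed with one of these symbols was used. That gave 8 of the 25687 probe sets tested: 4 for Ighm, 1 for Igkv15-103, 1 for Jchain and 2 for Pigr. Lung RNA came from BALB/c mice, 1 Affymetrix array a mouse, of which 61 were naive and 62 were sensitized to ovalbumin (OVA), a protein of egg white. Groups of 6 to 8 mice were taken at 0, 2, 6, 24, 48, 72, 96 and 168 h. The naive groups held 8, 7, 8, 8, 7, 8, 7 and 8 mice in that order of times, and the sensitized groups held 8, 8, 8, 6, 8, 8, 8 and 8. Whether the naive mice received antigen or buffer is not settled by the labels: the design text has OVA given to both arms, and naive sample titles read PBS. They also do not say whether 0 h was taken just before or just after that challenge. No source at hand gave the route, adjuvant, sex or age. Mice are named below by arm, time and a number that follows the order of deposit and pairs nothing.

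Antibodies are built from heavy chains and light chains. Ighm encodes the constant part of the mu heavy chain, which makes IgM, and it is transcribed both by resting B cells, as a membrane receptor, and by plasma cells, as a secreted protein. Igkv15-103 is 1 variable gene of the kappa light chain, used by those B cell clones that chose it when they rearranged their light chain. Jchain encodes the joining chain, which links IgM or IgA units into polymers in antibody-secreting cells. Pigr encodes the polymeric immunoglobulin receptor of epithelial cells, which takes up J chain-containing antibody at the basal side and releases it, with a fragment of the receptor, at the airway surface.

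All values are the authors' log2 signals, so a difference of 1 is a doubling of the signal. In these bulk samples, more cells of a type and more RNA in each cell cannot be told apart. Promoter sequence was at hand for Jchain and Pigr, a gene of antibody-secreting cells and a gene of epithelium that both differed between the arms, and the 250 bases before each RefSeq start site are shown so that the pair can be set side by side. They were read from RefSeq on build GRCm38.p6, whose strain is not BALB/c, each 5′ to 3′ on the strand of its gene. Pigr lies on the plus strand at chr1:130826434-130826683, and Jchain on the minus strand at chr5:88527898-88528147. Capitals mark a CACGTG E-box.
Pigr: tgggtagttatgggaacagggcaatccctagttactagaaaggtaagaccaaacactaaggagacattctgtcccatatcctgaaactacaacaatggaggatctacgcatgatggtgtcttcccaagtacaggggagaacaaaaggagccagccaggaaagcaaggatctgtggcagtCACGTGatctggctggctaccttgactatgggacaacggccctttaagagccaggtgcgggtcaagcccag
Jchain: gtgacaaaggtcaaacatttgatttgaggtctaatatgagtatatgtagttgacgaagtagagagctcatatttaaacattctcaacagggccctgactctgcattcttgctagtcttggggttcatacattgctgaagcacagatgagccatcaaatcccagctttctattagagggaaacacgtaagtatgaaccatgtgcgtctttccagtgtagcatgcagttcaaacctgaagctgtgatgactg
The E-box of the Pigr promoter lay 71 to 66 bases before the start, and 6.02% of 32851 RefSeq promoters of the same length hold CACGTG. The other 6 letter patterns searched, on both strands, matched in neither sequence. These were TTCNNNNGAA (a STAT6-type pattern, in 5.85% of promoters), TTCNNNGAA (a STAT-type pattern, 7.02%), GAAANNGAAA (an IRF-type pattern, 2.98%), the octamer ATTTGCAT (1.60%), the unfolded protein response element TGACGTGG (0.563%) and TATAAA (12.4%). No match says only that these letters are not in this window.

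Array medians lay between 9.32 and 9.44, no arrays held identical values, and the mean of 8 lung markers was high in every mouse, from 13.60 to 13.96. A squamous epithelium score of at least 8.23 set 7 arrays apart from the rest, which reached 6.68 at most, and a skeletal muscle score of at least 8.40 set 9 arrays apart from the rest, which reached 7.45. Together these were 10 arrays. Of the member values, these arrays held the highest Ighm of naive mice at 0 h (12.99, mouse 3), 2 h (10.84, mouse 2) and 24 h (12.93, mouse 8), and differences without the 10 arrays are given below where they matter. The log2 ratio of the 3′ to the 5′ actin control, a sign of RNA quality, was lower in sensitized than in naive mice at 6 h (by -0.18) and 24 h (by -0.13, adjusted p = 0.0224 at both, exact permutation test) and higher at 168 h (by 0.29, adjusted p = 0.0319). Its part in the results was not tested.

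In Il6 and Ighm, 4 sensitized mice stood apart from the others of their groups. At 2 h, Il6, the gene of an early inflammatory cytokine, was 9.22 to 10.44 in 5 sensitized mice, but 4.98, 5.19 and 4.57 in mice 2, 6 and 7, against 4.92 to 6.85 in naive mice. At 6 h it was 9.41 to 11.19 in 7 sensitized mice and 5.29 in mouse 3, against 4.45 to 6.53 in naive mice. These 4 mice had the lowest Ighm of their groups. In them Clca1, a goblet cell gene, read 8.80, 5.34 and 8.89 at 2 h, against 7.47 to 14.09 in the other 5, so that in Clca1, and likewise in Jchain, they overlapped the others at 2 h. It read 6.89 in the 6 h mouse against 12.98 or more in the other 7. The cytokine gene Il13 did not overlap, at 6.62, 6.31 and 6.54 in mice 2, 6 and 7 at 2 h, against 7.17 to 10.14 in the other 5. At 6 h Il13 read 6.30 in mouse 3 against 7.41 or more in the other 7. The labels give nothing that sets these mice apart, and they were kept. Whether they were sensitized and challenged as labelled was not tested. Values without them are given at 2 and 6 h. That choice was made after the values were seen and uses a gene that itself differed between the arms, so it describes the remaining mice and is no second test.

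**Figure D1:**
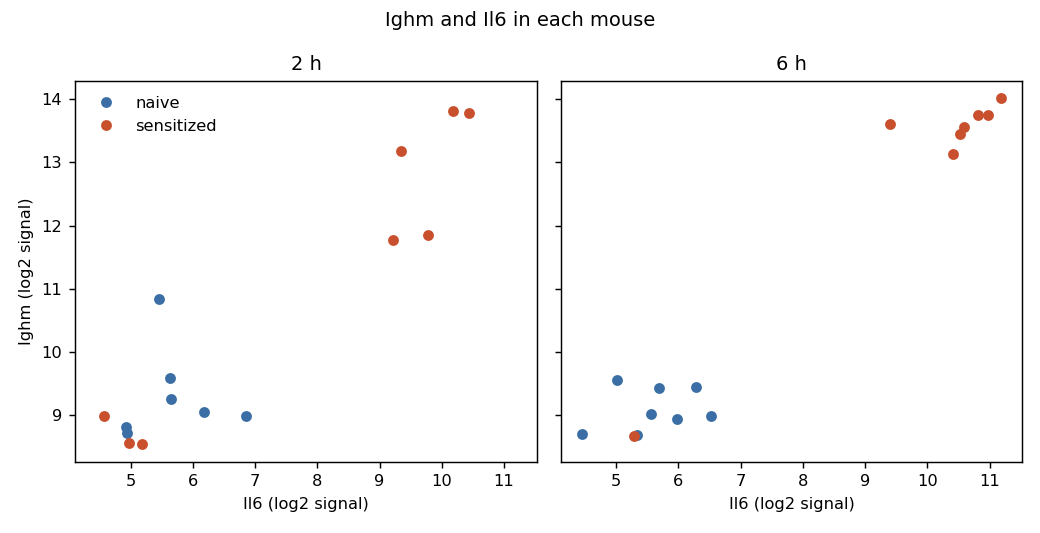
Ighm (vertical axis, log2 signal) against Il6 (horizontal axis, log2 signal) in each mouse at 2 h (left) and 6 h (right), naive in blue and sensitized in red. Of the sensitized mice, 3 at 2 h and 1 at 6 h lie beside or just below the naive mice, with Ighm from 8.54 to 8.99, and the others lie at 11.77 or more.

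Over the 8 times, 59 of the 64 differences between arms, 8 probe sets at 8 times, were higher in sensitized mice at an adjusted p under 0.05, and none was lower, also at an unadjusted p under 0.05 (limma) or by the exact permutation test. The 5 that did not pass were Igkv15-103 at 0 and 2 h, Jchain at 2 h and both Pigr sets at 2 h. By time, 7 of the 8 probe sets passed at 0 h, 4 at 2 h and 8 at each later time. Among all probe sets, the share higher in sensitized mice came to 11.4% for 0 h, 1.49% for 2 h and 24.4% for 6 h. It was 20% at 24 h, 13.9% at 48 h, 18.2% at 72 h, 17.1% at 96 h, and fell to 2.32% at 168 h. The share lower was 12.6%, 1.37%, 30.2%, 26.3%, 19.3%, 28.7%, 22% and 1.75% at the same times. The median difference over all probe sets stayed between -0.041 and -0.004.

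**Figure D2:**
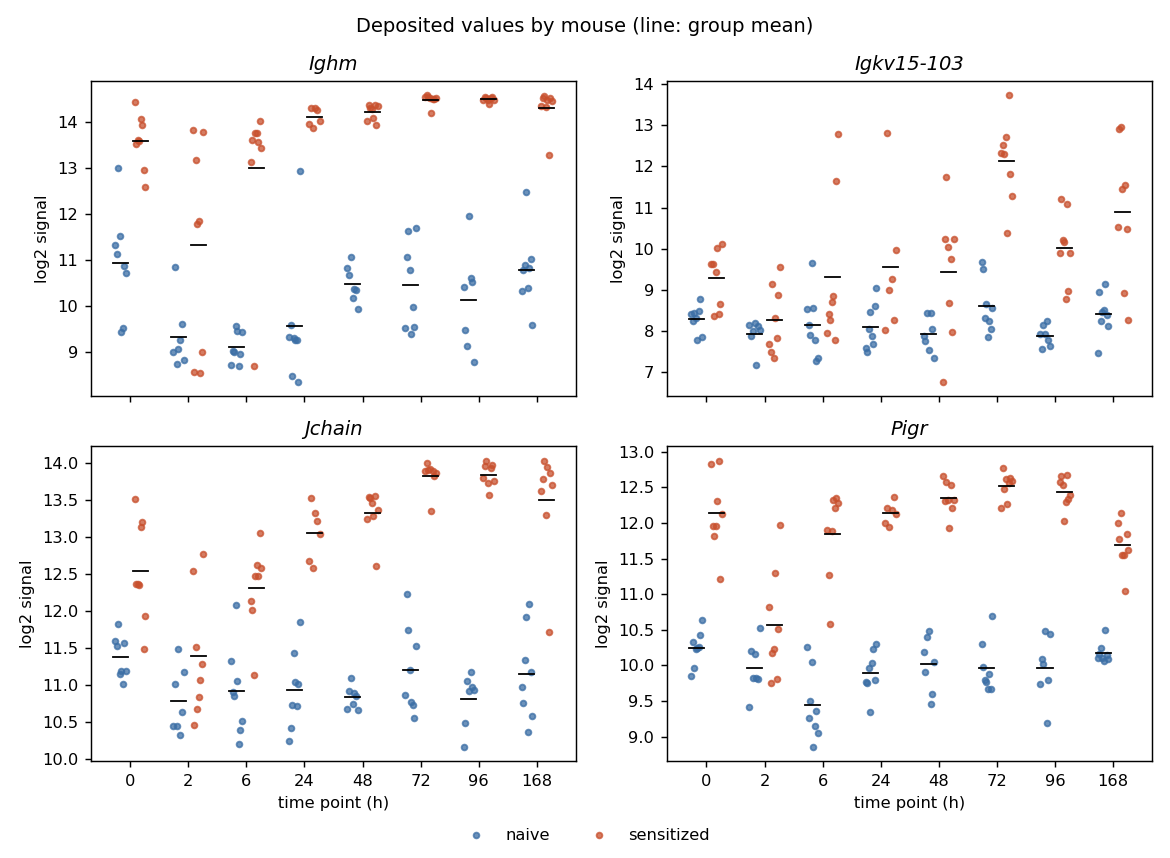
Log2 signal (vertical axis) of Ighm, Igkv15-103, Jchain and Pigr in each mouse at the 8 times (horizontal axis, h, not to scale), naive in blue and sensitized in red, with a line at each group mean. Sensitized mice reached 14.58 for Ighm, 13.72 for Igkv15-103, 14.04 for Jchain and 12.88 for Pigr, and the sensitized groups at 2 h had the lowest sensitized means.

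Ighm, the mu heavy chain gene, had the largest differences between the arms and was higher in sensitized mice at every time. For its brightest probe set, 1425247_a_at, naive mice at 0 h ranged from 9.43 over a median of 10.99 to 12.99, and sensitized mice from 12.57 over 13.60 to 14.43. Of the 8 sensitized mice, 6 lay above every naive mouse, and the overlap came from naive mouse 3. The mean difference was 2.65 (SE 0.50, 6.29-fold, adjusted p = 5.15e-05), and 3.06 without the 10 arrays of high squamous or muscle score.

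At 2 h naive mice lay at 8.72, 9.06 and 10.84 (lowest, median, highest) and sensitized mice at 8.54, 11.81 and 13.82. The sensitized group was split, with 5 mice above every naive mouse. Of the other 3, mice 2 (8.57) and 6 (8.54) lay just below the lowest naive mouse and mouse 7 (8.99) within the naive range. The difference was 1.99 (SE 0.52, 3.96-fold, adjusted p = 0.0163), and the SD of the sensitized group was 2.30 against 0.73 in naive mice. Mice were left out by leaving the same mouse number out of every group of the arm at once, here and below. Without sensitized mouse 1 the difference was 1.63 (adjusted p = 0.072), without mouse 8 it was 1.63 (adjusted p = 0.103), and by the exact permutation test, adjusted over all 64 tests, p was 0.0546. Without the sensitized mice of low Il6 it was 3.55 (adjusted p = 3.27e-10).

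The 6 h values were 8.69, 9.01 and 9.56 in naive mice and 8.68, 13.58 and 14.01 in sensitized mice. Of the 8 sensitized mice, 7 lay at 13.13 or more, and mouse 3 alone lay below every naive mouse. The difference was 3.89 (SE 0.50, 14.9-fold, adjusted p = 1.24e-10), and 4.51 without that mouse.

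From 24 h to 168 h no sensitized mouse overlapped with a naive mouse of its time. At 24 h naive mice spanned 8.35, 9.28 and 12.93, where all but mouse 8 lay at 9.58 or less, and sensitized mice 13.88, 14.13 and 14.31. The difference there, 4.56 (SE 0.54, 23.6-fold, adjusted p = 1.12e-11), was the largest of the 8 for this probe set, and it was 5.04 without naive mouse 8. At 48 h the naive mice lay at 9.93, 10.37 and 11.05 and the sensitized mice at 13.93, 14.30 and 14.38, a difference of 3.74 (13.3-fold, adjusted p = 6.94e-09). The spread among sensitized mice narrowed as the level rose, to an SD of 0.05 at 96 h.

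At 72 h the values were 9.38, 10.37 and 11.68 against 14.21, 14.52 and 14.58, and the difference was 4.04 (16.5-fold, adjusted p = 5.67e-11). At 96 h they were 8.77, 10.40 and 11.94 against 14.38, 14.50 and 14.55, with a difference of 4.37 (20.7-fold, adjusted p = 3.32e-11). At 168 h they were 9.58, 10.80 and 12.47 against 13.27, 14.46 and 14.57, and the difference was 3.53 (11.5-fold, adjusted p = 1.49e-07). The low value at 168 h belonged to mouse 6. In all, 56 of 62 sensitized mice exceeded every naive mouse of their time. The same count was not made over all probe sets. How unusual such separation was, here and for the other members below, was thus not tested. The highest value of any probe set in the table was 15.43, so the late Ighm levels were near the top of the measured range, and whether the signal was compressed there was not tested.

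Sensitized Ighm means rose in the order 2 h (11.31 ± 2.30, SD), 6 h (12.99 ± 1.76), 0 h (13.59 ± 0.59), 24 h (14.12 ± 0.19), 48 h (14.22 ± 0.18), 168 h (14.31 ± 0.43), then 72 h (14.49 ± 0.12) and 96 h (14.49 ± 0.05). Neighbours in this order differed by less than the larger of their SDs. In naive mice the order was 6 h (9.10 ± 0.34), 2 h (9.33 ± 0.73), 24 h (9.56 ± 1.43), 96 h (10.12 ± 1.08), 72 h (10.44 ± 0.96), 48 h (10.48 ± 0.39), 168 h (10.78 ± 0.82) and 0 h (10.93 ± 1.14). Naive Ighm also varied with time, by a moderated F test over the 8 naive groups (adjusted p = 0.00554). That test passed for 41.8% of all probe sets.

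The other 3 Ighm probe sets were higher in sensitized mice at all 8 times as well, although at 2 h all 3 lost the call by the exact permutation test (adjusted p = 0.0529, 0.0501 and 0.0538). Differences for 1425324_x_at ranged from 1.98 at 2 h to 4.86 at 96 h, for 1427756_x_at from 1.91 to 4.67 at the same times, and for 1427870_x_at from 2.12 to 5.63. The last of these is a 49.4-fold higher signal at 96 h. Across mice of a group the 4 sets moved almost as 1, with r of their deviations from the group means between 0.986 and 0.999. Their sizes still differed: the difference for 1425247_a_at minus that for 1427870_x_at was -0.65, -1.32 and -1.25 at 0, 72 and 96 h (adjusted p = 0.000504 at each of these times, exact permutation test), and -0.13 at 2 h (adjusted p = 0.352). The suffix of the 3 smaller sets means that some of their probes may match other sequences. Probe sequences were not at hand, so whether any of the 4 sets, 1425247_a_at included, reads mu chains alone cannot be told.

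**Figure D3:**
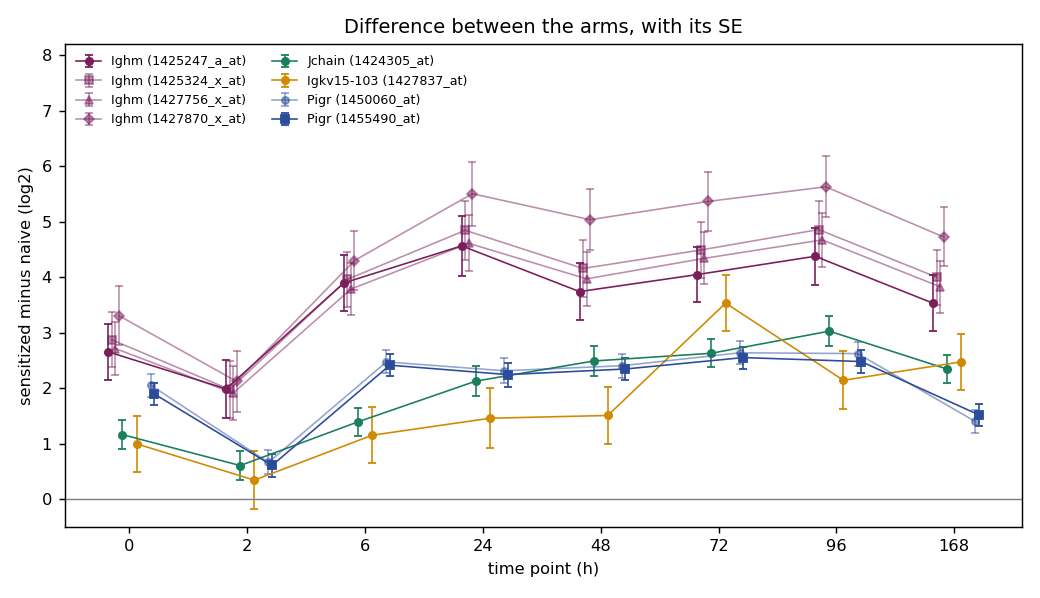
Sensitized minus naive difference (vertical axis, log2) with its SE for the 8 member probe sets at each time (horizontal axis, h, not to scale). Every difference is above 0, the points at 2 h are the lowest of each probe set, and Ighm lies above the other genes at each time, with Igkv15-103 nearest to it at 72 h.

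Igkv15-103, the kappa variable gene, was the most uneven member: the arms were apart without overlap only at 72 and 96 h, and the calls at 6, 24 and 48 h were each lost when 1 mouse number was left out of the sensitized arm. At 0 h naive mice lay at 7.77, 8.37 and 8.77 and sensitized mice at 8.36, 9.53 and 10.11. The groups overlapped, and the difference of 0.995 (SE 0.50) did not pass (adjusted p = 0.135), although the exact permutation test of the same values did (adjusted p = 0.00657). At 2 h the values were 7.18, 8.03 and 8.19 against 7.34, 8.07 and 9.57, with a difference of 0.34 (adjusted p = 0.807).

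At 6 h naive mice lay at 7.28, 8.03 and 9.66 and sensitized mice at 7.79, 8.56 and 12.79. The sensitized mice 7 and 8 stood far above the others, at 11.65 and 12.79. The difference of 1.15 (adjusted p = 0.0446) was 0.81 without mouse 7 (adjusted p = 0.181) and 0.65 without mouse 8 (adjusted p = 0.244). Mouse 7 also had a squamous score of 10.60. At 24 h naive mice lay at 7.48, 7.97 and 9.04 and sensitized mice at 8.03, 9.13 and 12.81, the last being mouse 2. The difference of 1.46 (adjusted p = 0.0213) was 0.80 without that mouse (adjusted p = 0.227). At 48 h the values were 7.33, 7.89 and 8.44 against 6.77, 9.90 and 11.74, so that the sensitized group held the lowest mouse as well as the highest. The difference of 1.51 (adjusted p = 0.0187) was 1.18 without mouse 3, the highest (adjusted p = 0.0738).

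At 72 h every sensitized mouse was above every naive mouse, with values of 7.86, 8.43 and 9.67 against 10.38, 12.31 and 13.72. The difference was 3.53 (SE 0.50, 11.6-fold, adjusted p = 6.50e-09). The groups were apart at 96 h too, at 7.57, 7.93 and 8.24 against 8.78, 10.03 and 11.22, with a difference of 2.14 (4.41-fold, adjusted p = 0.000553). At 168 h they overlapped again, at 7.47, 8.42 and 9.13 against 8.27, 10.99 and 12.95, and the difference was 2.47 (5.55-fold, adjusted p = 0.000791). Over all times 42 of 62 sensitized mice exceeded every naive mouse of their time.

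The sensitized means of Igkv15-103 came in the order 2 h (8.28 ± 0.83), 0 h (9.29 ± 0.70), 6 h (9.30 ± 1.86), 48 h (9.43 ± 1.55), 24 h (9.56 ± 1.74), 96 h (10.03 ± 0.87), 168 h (10.88 ± 1.69) and 72 h (12.13 ± 0.9996). Only 2 h and 0 h, the lowest pair, differed by more than the larger SD of the pair. Naive means stayed between 7.89 and 8.60, and the F test over naive times did not pass (adjusted p = 0.867).

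Jchain, the joining chain gene, was bright in naive lung already and rose further in sensitized lung, to its largest difference at 96 h. At 0 h naive mice lay at 11.02, 11.36 and 11.83 and sensitized mice at 11.49, 12.37 and 13.51. The groups overlapped in their tails, and the difference was 1.16 (SE 0.26, 2.24-fold, adjusted p = 0.000509). At 2 h the values were 10.33, 10.64 and 11.49 against 10.46, 11.18 and 12.78. Here the difference was 0.60 (95% interval 0.08 to 1.13, 1.52-fold) and did not pass (adjusted p = 0.218), and it was 0.88 without the mice of low Il6 (adjusted p = 0.0481). At 6 h they were 10.21, 10.88 and 12.09 against 11.14, 12.48 and 13.06, overlapping, with a difference of 1.39 (2.62-fold, adjusted p = 2.13e-06).

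Between 24 h and 96 h the arms did not overlap in Jchain. The 24 h values were 10.24, 10.88 and 11.86 against 12.58, 13.13 and 13.53, with a difference of 2.13 (4.36-fold, adjusted p = 3.23e-10). The 48 h values were 10.66, 10.86 and 11.10 against 12.61, 13.42 and 13.56, with a difference of 2.49 (5.61-fold, adjusted p = 4.11e-13). Naive mice were unusually close together at that time, with an SD of 0.16. At 72 h the values were 10.55, 11.04 and 12.24 against 13.35, 13.89 and 14.00, with a difference of 2.63 (6.18-fold, adjusted p = 2.94e-15). At 96 h they were 10.17, 10.93 and 11.19 against 13.57, 13.86 and 14.04, and the difference reached 3.03 (SE 0.26, 8.14-fold, adjusted p = 2.33e-17). At 168 h naive mice lay at 10.36, 11.08 and 12.10 and sensitized mice at 11.72, 13.74 and 14.04. Only sensitized mouse 6, at 11.72, reached into the naive range, since the next lowest lay at 13.30. The difference was 2.34 (5.07-fold, adjusted p = 9.22e-12), and 2.60 without mouse 6.

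Sensitized Jchain means came in the order 2 h (11.40 ± 0.85), 6 h (12.31 ± 0.57), 0 h (12.55 ± 0.69), 24 h (13.06 ± 0.37), 48 h (13.33 ± 0.31), 168 h (13.50 ± 0.75), 72 h (13.83 ± 0.20) and 96 h (13.84 ± 0.16). Of neighbours in this order only 2 h and 6 h differed by more than the larger SD of the pair. Naive means lay between 10.79 and 11.39, and the F test over naive times did not pass (adjusted p = 0.309). In all, 53 of 62 sensitized mice exceeded every naive mouse of their time.

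Pigr, the epithelial receptor, separated the arms already at 0 h and at every time but 2 h. For its brighter probe set, 1455490_at, naive mice at 0 h lay at 9.85, 10.25 and 10.63 and sensitized mice at 11.22, 12.05 and 12.88, with no overlap. The difference was 1.89 (SE 0.20, 3.72-fold, adjusted p = 9.91e-13). At 2 h the values were 9.42, 9.83 and 10.53 against 9.76, 10.37 and 11.97. Here the arms overlapped, and the difference of 0.61 (95% interval 0.20 to 1.02, 1.52-fold) did not pass (adjusted p = 0.0868). It passed without sensitized mouse 2 (0.72, adjusted p = 0.0369), without mouse 6 (0.72, adjusted p = 0.0331) and without all 3 mice of low Il6 (0.93, adjusted p = 0.00176).

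At 6 h naive mice lay at 8.86, 9.31 and 10.26 and sensitized mice at 10.58, 12.06 and 12.36. Even sensitized mouse 3, the lowest, was above every naive mouse, and the difference was 2.41 (5.32-fold, adjusted p = 3.12e-18). At 24 h the values were 9.34, 9.88 and 10.31 against 11.95, 12.16 and 12.37, a difference of 2.24 (4.73-fold, adjusted p = 2.91e-15). At 48 h they were 9.45, 10.05 and 10.49 against 11.93, 12.32 and 12.66, a difference of 2.34 (5.08-fold, adjusted p = 5.54e-17). At 72 h the difference was the largest, 2.55 (5.85-fold, adjusted p = 4.03e-20), from values of 9.67, 9.84 and 10.69 against 12.21, 12.58 and 12.77.

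At 96 h Pigr values were 9.19, 10.02 and 10.48 against 12.04, 12.47 and 12.68, with a difference of 2.48 (5.57-fold, adjusted p = 1.95e-18). At 168 h they were 10.06, 10.13 and 10.50 against 11.05, 11.70 and 12.14, and the difference was 1.52 (2.86-fold, adjusted p = 1.19e-08). The arms were apart at both times, and 57 of 62 sensitized mice exceeded every naive mouse of their time. The second probe set, 1450060_at, gave differences of 2.05, 0.66, 2.47, 2.31, 2.40, 2.64, 2.62 and 1.40 in the order of times, with r = 0.974 between the sets' deviations across mice.

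Sensitized Pigr means came in the order 2 h (10.57 ± 0.76), 168 h (11.69 ± 0.34), 6 h (11.85 ± 0.63), 0 h (12.14 ± 0.54), 24 h (12.14 ± 0.15), 48 h (12.36 ± 0.23), 96 h (12.44 ± 0.22) and 72 h (12.52 ± 0.19). Only 2 h and 168 h, the lowest pair, differed by more than the larger SD of the pair. Naive means lay between 9.44 at 6 h and 10.24 at 0 h, and naive Pigr varied with time by the F test (adjusted p = 0.0233).

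In sensitized mice all 4 genes changed with time. The F test over the sensitized groups gave an adjusted p of 1.40e-08 for Ighm, 9.45e-17 for Jchain, 9.93e-10 for Igkv15-103 and 1.33e-15 for Pigr, in a setting where 88.1% of all probe sets passed. The arms also followed different courses (interaction of arm and time), with adjusted p of 0.0183, 4.71e-08, 0.00298 and 2.96e-08 in the same order, where 59.4% of all probe sets passed.

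From 0 to 2 h, 7 of the 8 probe sets fell in sensitized mice, in a step that passed in either direction for 32.1% of all probe sets. Ighm went by -2.28 (SE 0.50, adjusted p = 0.000233), Jchain by -1.15 (adjusted p = 0.000277) and Pigr by -1.57 (adjusted p = 3.14e-09). The value for Igkv15-103 was -1.01 (adjusted p = 0.114). Without the 3 mice of low Il6 at 2 h, the step of the brightest Ighm set was -0.71 and did not pass (adjusted p = 0.226). Of the other Ighm sets, 1427870_x_at passed (-1.20, adjusted p = 0.0437). Neither 1425324_x_at (-0.79, adjusted p = 0.170) nor 1427756_x_at (-0.74, adjusted p = 0.181) did. The steps of Jchain (-0.88, adjusted p = 0.0196) and Pigr (-1.24, adjusted p = 8.81e-06) passed.

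From 2 to 6 h the same 7 probe sets rose, in a step that passed for 47.6% of all probe sets. Ighm rose by 1.68 (adjusted p = 0.00334), Jchain by 0.92 (adjusted p = 0.00176) and Pigr by 1.28 (adjusted p = 7.03e-08). Without the 4 mice of low Il6, Ighm gave 0.73 (adjusted p = 0.159), Jchain 0.81 (adjusted p = 0.0167) and Pigr 1.13 (adjusted p = 5.64e-06). From 6 to 24 h Jchain rose by a further 0.75 (adjusted p = 0.0307), in a step that passed for 28.9%. The brightest Ighm set gave 1.13 (adjusted p = 0.107) and the other 3 Ighm sets passed, at 1.34, 1.28 and 1.54.

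No member passed from 24 to 48 h (limma), nor at an unadjusted p under 0.05, in a step that passed for 23.7% of all probe sets. From 48 to 72 h, a step that passed for 4.95%, Igkv15-103 alone among the members rose, by 2.71 (SE 0.50, adjusted p = 0.000309). From 72 to 96 h it went back by -2.11 (adjusted p = 0.00355), again the only member to pass in a step that passed for 12.3%. From 96 to 168 h both Pigr sets fell, by -0.75 (adjusted p = 0.00221) and -1.17 (adjusted p = 7.92e-06), in a step that passed for 33.5%, while Ighm (-0.18), Jchain (-0.35) and Igkv15-103 (0.86) did not pass. The actin ratio of sensitized mice was 1.05 at 96 h and 1.497 at 168 h, and its part in the fall of Pigr was not tested. In naive mice no member passed in any of the 7 steps (limma), and 9 of these 56 tests had an unadjusted p under 0.05, among them the difference of Ighm from 0 to 2 h (-1.61, adjusted p = 0.065). Among all probe sets, 9.08% to 21.2% had an unadjusted p under 0.05 in these naive steps, so the members' count lay within that range.

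Set against the difference at 0 h, that of Pigr was smaller at 2 h (-1.29, SE 0.29, adjusted p = 0.00334), where 4.85% of all probe sets passed. Jchain's was larger at 72 h (1.47, SE 0.36, adjusted p = 0.0129) and at 96 h (1.86, SE 0.37, adjusted p = 0.000993), where 1.88% and 2.83% passed. Igkv15-103's was larger at 72 h (2.53, SE 0.71, adjusted p = 0.0375), a call lost without the arrays of high squamous score (2.49, adjusted p = 0.0611). No Ighm set passed at any time, and no member passed at 6, 24, 48 or 168 h, where 20.5%, 4.72%, 0% and 1.65% of all probe sets did (limma). At an unadjusted p under 0.05 the members' count was 0 at 6 h, 5 at 24 h, 2 at 48 h and 3 at 168 h (2 higher and 1 lower). Of all probe sets, 33.1%, 20.3%, 11.6% and 17.7% passed that cut at these times. Without the mice of low Il6, Ighm passed at 6 h (1.86, adjusted p = 0.00376) and so did Pigr (0.70, adjusted p = 0.0327).

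The sizes of the differences were compared between the 28 pairs of member probe sets at the 8 times, by exact permutation over mice, and 153 of the 224 tests passed after adjustment over all of them. This count includes pairs of probe sets of the same gene, and the 4 Ighm sets repeat each other in it. The same count was not made for pairs of other probe sets. The Ighm difference (1425247_a_at) exceeded that of Jchain at every time but 2 h, by 1.19 at 168 h to 2.50 at 6 h. It exceeded that of Pigr (1455490_at) from 6 h on, by 1.39 at 48 h to 2.32 at 24 h, and not by the test at 0 h (0.76, adjusted p = 0.164) or 2 h (1.38, adjusted p = 0.122). Of the other Ighm sets, 1427870_x_at alone exceeded this Pigr set at 0 h by the same test (1.41, adjusted p = 0.0256).

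Jchain and Pigr changed places over the course. The Jchain difference minus the Pigr difference was -0.73 at 0 h (adjusted p = 0.00255) and -1.02 at 6 h (adjusted p = 0.000504), then 0.55 at 96 h (adjusted p = 0.044) and 0.83 at 168 h (adjusted p = 0.0159, all by exact permutation). Those values are for 1455490_at. With the other Pigr set, 1450060_at, the test at 96 h did not pass (0.40, adjusted p = 0.122), and those at 0 h (-0.89), 6 h (-1.08) and 168 h (0.94, adjusted p = 0.0147) did. Between 24 and 72 h it lay between -0.12 and 0.14 for 1455490_at, with no test passing. For Igkv15-103, the Jchain difference minus its own was -0.90 at 72 h (adjusted p = 0.046) and 0.89 at 96 h (adjusted p = 0.0262).

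Mice of the same group that had more of one member tended to have more of another. Over the deviations of all mice from their group means, the relation was closest between Ighm and Jchain (r = 0.598, rho = 0.603, r = 0.552 without the 2 farthest mice, adjusted p = 3.00e-05 by permutation within groups, 6 relations). Jchain and Pigr gave r = 0.567, rho = 0.509 and 0.510 without the farthest mice (adjusted p = 3.00e-05). Jchain and Igkv15-103 gave 0.349, 0.409 and 0.377 (adjusted p = 0.00032).

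Within the arms Jchain and Pigr were related in sensitized mice (r = 0.743, n = 62) and more weakly in naive mice (r = 0.309, n = 61, adjusted p = 0.0418). Jchain and Igkv15-103 went the other way, with r = 0.619 in naive mice (adjusted p = 0.00012, permutation within groups). In sensitized mice that pair gave r = 0.290 (adjusted p = 0.0332, same test). Ighm and Pigr gave r = 0.426 and rho = 0.254 over all mice (adjusted p = 0.00093), 0.657 in sensitized mice and 0.087 in naive mice (adjusted p = 0.501). The sensitized value was 0.530 without the 2 farthest mice, mouse 6 at 2 h and mouse 3 at 6 h, both of low Il6. It was not computed without all mice of low Il6. Whether the arms differed in these relations was not tested. Igkv15-103 was only loosely related to Ighm (r = 0.184, adjusted p = 0.0621) and to Pigr (r = 0.256, adjusted p = 0.00964). All members of a mouse come from 1 array and 1 piece of lung.

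**Figure D4:**
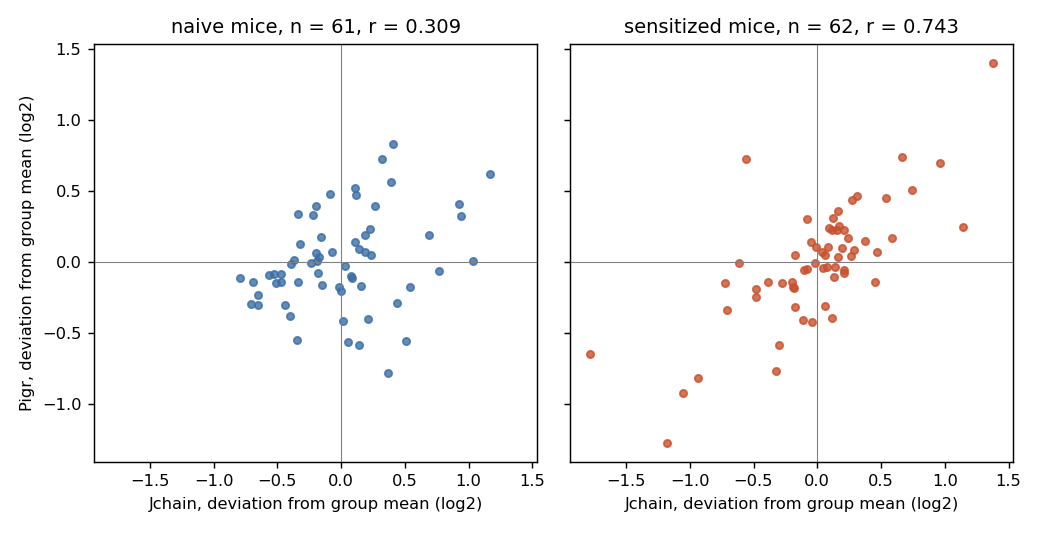
Pigr (vertical axis) against Jchain (horizontal axis), each as the deviation of a mouse from its group mean (log2), in 61 naive mice (left) and 62 sensitized mice (right). The sensitized points follow a rising line (r = 0.743), with the naive points more scattered (r = 0.309).

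The genes with the most similar patterns were found by correlation with each member's brightest probe set. Over the 16 group means, those nearest to Ighm were Mmp12 (r = 0.970), H2-Ab1 (0.968), Atp10b (0.967), Rnf128 (0.966) and Muc5b (0.966). Nearest to Jchain were Moxd1 (0.992), the kappa variable gene Igkv14-111 (0.974), Atp10b (0.969), Derl3 (0.969) and Eaf2 (0.968). For Igkv15-103 they were Upb1 (0.940), Igkv14-111 (0.934), Slamf7 (0.932), Derl3 (0.922) and Igkv6-20 (0.921), and for Pigr Slc6a20a (0.991), Mmp12 (0.987), Chil4 (0.985), Scin (0.985) and H2-Ab1 (0.985).

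Likeness was also taken within groups, over the deviations of all mice from their group means. Jchain was nearest to Igkv14-111 (r = 0.791), Mzb1 (0.698), Eaf2 (0.692), Mmp12 (0.664) and Bcat1 (0.659). Pigr was nearest to the mucin Muc4 (0.811), the mucus protein Fcgbp (0.783), Steap1 (0.782), the secretory cell gene Agr2 (0.778) and Gsto1 (0.764). Ighm was nearest to Mmp12 (0.720) and the inflammatory genes Ccl3 (0.700), Ccl4 (0.692), Ccl9 (0.692) and Osm (0.685), and Igkv15-103 to Cdh17 (0.420), Slc16a6 (0.414), Cxcl13 (0.405), Pdlim4 (0.403) and Tm4sf5 (0.399). Groups of wide spread weigh most in these r values. The SD of sensitized Ighm was 2.30 at 2 h and 1.76 at 6 h, against 0.05 at 96 h. How far the mice of low Il6 set the genes nearest to Ighm was not tested.

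Other antibody genes on the array were higher in sensitized mice too. Igha, the constant part of the IgA heavy chain, and the light chain variable genes Igkv14-111, Igkv6-20 and Iglv1 have 6 probe sets between them. Of these 1 was higher at 0 h, none at 2 h (also none unadjusted, limma), 5 at 6 h, 4 at 24 h, 5 at 48 h and all 6 at 72, 96 and 168 h. Their median difference went from 0.64 at 6 h to 2.22 at 72 h, against -0.04 over all probe sets at the later time. At 72 h the difference was 2.12 for Igha (SE 0.17), 3.41 for Igkv14-111 (SE 0.39), 2.00 for Igkv6-20 (SE 0.32) and 1.71 for Iglv1 (SE 0.22). At 0 h only Igkv14-111 had passed, at 1.56 (adjusted p = 0.00254).

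Genes of the plasma cell program, which builds the secretory machinery of antibody-producing cells, were higher in sensitized mice with Jchain. Of 23 probe sets for 17 genes, 8 were higher and 1 lower at 0 h, 4 higher at 2 h, 20 at 6 h, 16 higher and 1 lower at 48 h, and 21 higher with 1 lower at 24, 72 and 96 h. The median difference was 0.85 at 72 h and 0.29 at 168 h, when 10 were higher. At 72 h Mzb1, a chaperone of antibody assembly, differed by 3.37 (SE 0.26), Derl3 by 3.08 (SE 0.21) and Edem1 by 2.13 (SE 0.17), both of protein quality control in the endoplasmic reticulum. Tnfrsf17, the survival receptor BCMA, differed by 2.07 (SE 0.18), the regulator Irf4 by 1.71 (SE 0.23) and Xbp1, the regulator of the secretory program, by 0.48 (SE 0.07). Sdc1, which epithelial cells also express, was the lower one, at -0.20 (SE 0.04). The mean of the 17 genes was 10.12 to 10.44 over all naive mice and 10.89 to 11.93 in sensitized mice at 72 h.

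B cell markers passed in both directions. Of 17 probe sets for 11 genes, 6 were lower and none higher at 2 h (13 and 0 at an unadjusted p under 0.05, limma; median -0.44), among them Tnfrsf13c, the BAFF receptor (-0.91, SE 0.19, adjusted p = 0.00116), and Blk, a kinase of B cell receptor signalling (-0.71, SE 0.18, adjusted p = 0.0113). At 6 h 9 were higher and 1 lower, and at 72 h 10 were higher and 2 lower, with medians of 0.43 at both times. With 1 probe set a gene, none was lower at 6 or 72 h. Blnk, an adaptor of the B cell receptor, differed by 1.12 at 72 h (SE 0.15). At 168 h none passed in either direction (limma; 1 higher and 2 lower unadjusted), while every Ighm set and Jchain did. The mean of the 11 markers ran from 9.37 to 10.56 over all naive mice and from 10.48 to 11.07 in sensitized mice at 72 h.

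**Figure D5:**
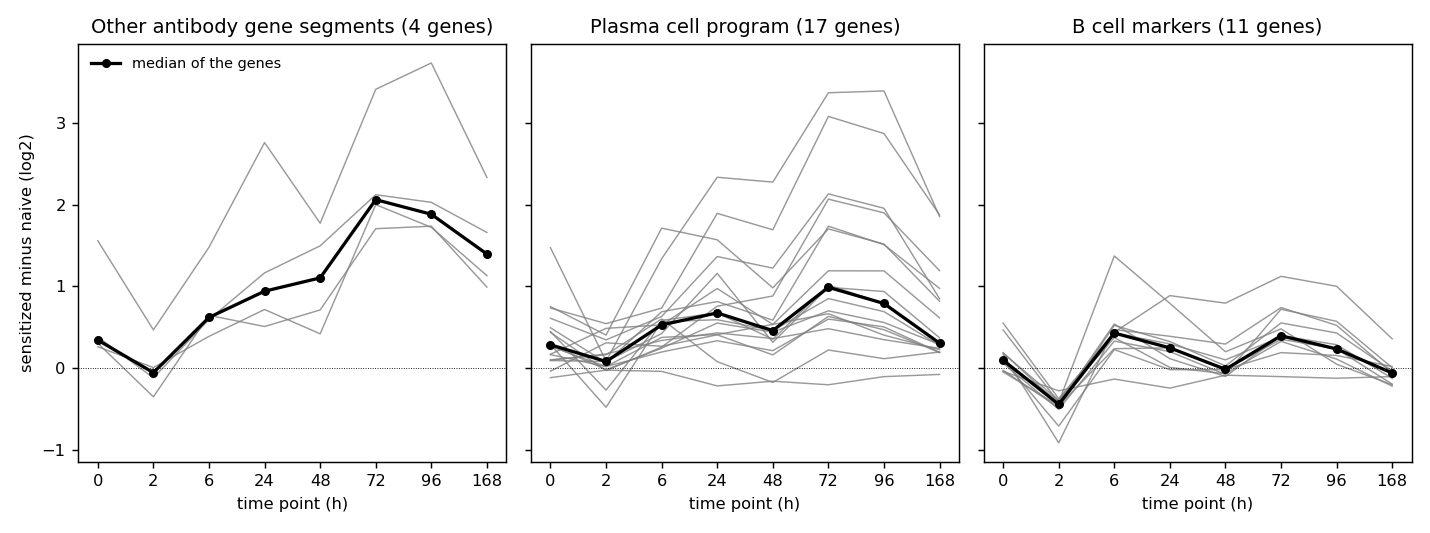
Sensitized minus naive difference (vertical axis, log2) at each time (horizontal axis, h, not to scale) for 4 other antibody genes, 17 plasma cell program genes and 11 B cell markers, 1 grey line a gene and the median over genes in black. Antibody genes and the plasma cell program are highest at 72 and 96 h, and B cell markers dip at 2 h.

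Genes that act before and around antibody secretion were higher at 6 h and in part at 72 h. Of 12 probe sets of class switching and germinal centre genes, 10 were higher at 6 h (median 0.90) and 6 at 72 h, with the cytokines Il4 at 3.76 (SE 0.37) and Il21 at 2.56 (SE 0.30) at 6 h and the uracil glycosylase Ung at 1.07 (SE 0.13) at 72 h. Of 25 probe sets of plasma cell survival and homing factors, 14 were higher and 2 lower at 6 h, and 17 higher at 72 h. Examples are Il6 at 4.30 (SE 0.56), Il5 at 2.81 (SE 0.29) and Tnfsf13b, which encodes BAFF, at 1.19 (SE 0.13) at 6 h, and Ccr10, a homing receptor of plasma cells, at 0.56 (SE 0.09) at 72 h. Of 16 probe sets of antibody receptors other than Pigr, 14 were higher and 1 lower at 6 h, where Fcgr2b, the inhibitory IgG receptor, differed by 1.96 (SE 0.19), and 7 were higher at 72 h. Fcamr, a receptor for IgM and IgA, differed by 1.06 at 6 h (SE 0.15) and 1.01 at 72 h (SE 0.15).

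Known regulators of Pigr transcription and of transport through the cell passed in both directions. Of 32 probe sets for 19 genes, 15 were higher and 12 lower at 6 h (median 0.03), and 5 higher and 7 lower at 72 h (median -0.03). As shares of the list these are 46.9% and 37.5% at 6 h, against 24.4% and 30.2% of all probe sets, and 15.6% and 21.9% at 72 h, below the 18.2% and 28.7% of all probe sets. Those higher at 6 h included the cytokine Ifng (2.63, SE 0.27), Relb of the NF-kappa B family (1.16, SE 0.12) and Irf1 (0.98, SE 0.09). Rab3d (-0.46, SE 0.07) and the motor Myo5b (-0.23, SE 0.08) were lower at 6 h. At 72 h, when the Pigr difference was 2.55, Ifng was at 0.66 and Irf1 at 0.14 (adjusted p = 0.195). Whether any gene of this list bears on the Pigr difference was not tested.

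Genes of airway secretory cells, which carry Pigr, passed in both directions, more of them higher than lower. Of 21 probe sets, 11 were higher and 2 lower at 0 h, 2 higher at 2 h, 12 higher and 5 lower at 6 h, 14 and 3 at 24 h, and 12 and 3 at 48 h. At 72 h 15 were higher and 4 lower (median 2.25), at 96 h 15 and 1, and at 168 h 10 were higher. Clca1 differed by 8.56 (SE 0.57), the gel-forming mucin Muc5ac by 3.97 (SE 0.31) and Agr2 by 3.43 (SE 0.41) at 72 h. Scgb1a1, the defining gene of club cells, was at -0.05 (adjusted p = 0.0985) and Scgb3a2 was lower at -0.45 (SE 0.10). How far the airway cell content of the samples bears on the Pigr difference was not tested.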

How the data were processed

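Per the labels' protocols, total RNA of lung was amplified with a 3′ in vitro transcription kit and labelled with biotin, with an RNA integrity number above 6 in every sample. The values used are the deposited log2 signals, 1 for each probe set and array, made by the authors with RMA per the submitters' processing notes in a table of 25697 probe sets. Neither the version nor the filter behind that table is stated in any source at hand. RMA shares a scale between arrays and compresses low signals. The 10 controls were not tested, and genes were named by platform annotation: 22478 probe sets had 1 symbol, 259 several and 2950 no listed gene. A further probe set listed for several heavy chain genes was not used.

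Limma 3.58.1 (lmFit, eBayes; R 4.3.3, version 1.17.8 of data.table) fitted 16 group means to all arrays (107 residual degrees of freedom), with Benjamini-Hochberg adjustment within each contrast over 25687 probe sets and a threshold of 0.05. Every adjusted p comes from this fit unless an exact permutation or a permutation test is named. All tests were two-sided. All groups share 1 estimate of the spread, so the SE understates the spread of groups that vary more. Pair and permutation tests used scipy 1.17.1, numpy 2.4.6 and pandas 2.3.3 in Python 3.11.15, relations used 100000 resamples within groups, and figures matplotlib 3.10.9. On simulated data for the 72 h comparison over 25687 probe sets, 92% of changes of 0.5 and 97% of changes of 1 (log2) were recovered. The changed probe sets were drawn at random, with normal noise of the same SD in every group. These rates thus do not give the chance of finding a change in a member, where the spread differed between groups.

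The members, gene lists and tests were chosen with earlier results of these data known. All members were named, any measured gene of a list could be named beside its count, and the 5 genes of highest r named the patterns most like each member. Antibody genes other than the members were added as a list after the annotation was seen. The number of arrays limits the precision.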

Additional observations from a re-analysis of the deposited data

Results flagged for a closer look

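Among 128 groups of member values, 27 held a mouse far from the rest by Dixon's test at the 95% level; chance flags about 1 in 20 groups, and the 4 Ighm probe sets repeat each other. For Ighm, naive mouse 2 at 2 h was high on all 4 sets (10.84, 10.12, 9.77 and 9.17), and so was naive mouse 8 at 24 h (12.93, 12.29, 11.80 and 11.56). Sensitized mouse 3 at 6 h was low (8.68, 8.11, 7.95 and 7.28), as were sensitized mouse 5 at 72 h (14.21, 13.91, 13.40 and 13.85) and sensitized mouse 6 at 168 h (13.27, 12.73, 12.20 and 12.30). Naive mouse 4 at 168 h was high on 1425324_x_at (11.73) and 1427870_x_at (11.04).

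For Jchain, sensitized mouse 7 at 48 h (12.61), mouse 5 at 72 h (13.35) and mouse 6 at 168 h (11.72) were low. Sensitized mouse 5 at 72 h and mouse 6 at 168 h were thus the lowest of their groups in both genes. For Igkv15-103, naive mouse 5 at 2 h was low (7.18), and for Pigr (1455490_at), naive mouse 6 at 168 h was high (10.50).

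The difference between the arms itself changed since 0 h, by the test of that change, for Pigr at 2 h (-1.29), Jchain at 72 h (1.47) and 96 h (1.86), and Igkv15-103 at 72 h (2.53). The last was 2.49 without the arrays of high squamous score and no longer passed (adjusted p = 0.0611).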

How the results depend on the processing

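The differences between the arms were recomputed with other normalization, filters, shrinkage, array weights, subsets of arrays and an exact permutation test. For the brightest set of each member, 347 of these differences kept their direction and side of the threshold, 7 fell below it and 6 rose past it; none reversed. For the change since 0 h the counts were 89, 1 and 2. With only the 2 groups of the time in the fit, Ighm at 2 h (1.99, adjusted p = 0.232) and Igkv15-103 at 6 h (1.15, adjusted p = 0.158) no longer passed, and Igkv15-103 at 0 h did (0.995, adjusted p = 0.017). The exact permutation test gave the same 3 turns (values 1.99, 1.15 and 0.995). Igkv15-103 at 6 h was 0.75 without arrays of high squamous score, 1.23 without those of high muscle score and 0.86 without both, passing in none, and its change at 72 h was 2.49 without the squamous arrays (adjusted p = 0.0611). Pigr at 2 h passed without the muscle arrays and without both (0.75 each). Without the sensitized mice of low Il6, an alternative chosen after seeing the data, Jchain (0.88) and Pigr (0.93) passed at 2 h, and the changes at 6 h of Ighm (1.86) and Pigr (0.70) passed. The causes were not tested.

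Leaving out each mouse number of an arm in turn, the difference ran from 1.63 to 2.38 for Ighm at 2 h, 0.41 to 0.72 for Pigr at 2 h, and for Igkv15-103 from 0.65 to 1.37 at 6 h, 0.80 to 1.76 at 24 h and 1.18 to 1.89 at 48 h. The share of all probe sets called ran from 12.4% to 28.4% at 0 h, 1.15% to 3.82% at 2 h and 1.76% to 4.72% at 168 h. It was 7.86% at 2 h and 9.04% at 168 h with array weights, 1.89% at 168 h with only those 2 groups, and 6.22% at 2 h without the mice of low Il6. The same number was left out of every group of an arm at once.

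With 1 probe set a gene, fewer features were counted and these counts were lower. Why single calls were lost was not tested. Plasma cell program genes higher at 2 h were 2. B cell markers lower at 0, 2, 6, 24, 48, 72 and 96 h were 0, 3, 0, 1, 0, 0 and 0, and 6 were higher at 72 h. Secreted antibody chains (Igha and Iglv1, 4 probe sets, all higher at 72 h) gave 2. Antibody receptors higher at 6 and 72 h were 9 and 3, and survival and homing factors 7 and 9. Of Pigr regulators 5 were lower at 6 h, and at 72 h 2 were higher and 2 lower. Within naive mice the relation of Ighm with Igkv15-103 was 0.269, and those of Pigr with Ighm (0.087) and Igkv15-103 (0.188) did not pass.

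No paired analysis was possible because replicate numbers follow the order of deposit and pair no mice.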

Other observations

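Other cell type lists gave these counts beside the members, to be read against the shares of all probe sets given above. Of 14 probe sets of T cell markers, 13 were higher in sensitized mice at 6 h (median 0.70) and 8 at 72 h. Of 9 probe sets of ciliated cell markers, 5 were higher at 48 h and 8 at 72 h (median 0.34). Of 9 adipocyte probe sets, 5 were lower at 0 h (median -1.07). Of 13 skeletal muscle probe sets, 5 were lower at 0 h (median -1.22), and of 25 squamous probe sets 3 were lower at 0 h (median -1.11), the time at which 2 naive arrays of high squamous and muscle score were among the 8. Of all probe sets 12.6% were lower at 0 h, and the squamous count was near that share. Of 4 probe sets of lymph node stroma, 2 were higher at 6 h (median 0.72). Glycam1, a gene of lymph node vessels, was highest in naive mouse 8 at 24 h (12.09) and sensitized mouse 7 at 2 h (11.70). Next came sensitized mouse 4 at 48 h (10.30), naive mouse 6 at 0 h (10.15) and sensitized mouse 2 at 48 h (9.49). Of 4 thymus probe sets 2 were lower at 6 h. Lung markers were slightly lower in sensitized mice at 6 h, in 10 of 12 probe sets (median -0.13).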
